A study of Mus musculus with 4 samples.

Results

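Dense clusters of neighbouring ATAC-seq peaks were described in monocytes from mouse bone marrow of the femur and the mandible. The peaks of each autosome were sorted by position and chained where the next peak started at most 5000 bp after the end of the one before it. Chains of 5 or more peaks were kept, and their peaks of at most 2000 bp were the members. This rule uses position and length and no signal. It gave 7538 member peaks of the 57090 peaks in all, or 13.5% of the 55942 autosomal peaks, in 1238 chains. The chains held 7794 peaks, of which 256 were wider than 2000 bp and were left out of the members.

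ATAC-seq cuts DNA with the Tn5 transposase where chromatin is open, so that a peak marks an accessible stretch such as a promoter or an enhancer. In monocytes and macrophages, lineage factors such as PU.1 and the C/EBP proteins hold many enhancers open, and several enhancers often stand close together near genes that define the lineage. A dense run of accessible peaks can hold such a group of enhancers, a cluster of gene promoters or both, and peak position alone does not tell these apart. No histone mark, and no annotation of the build of the peak coordinates, GRCm39, was used here, so the chains are described by position and carry no gene names.

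The 4 libraries came from male C57BL/6J mice of 2 months, with 2 libraries from the femur and 2 from the mandible. Each batch, A or B, pooled the marrow of 4 mice and gave 1 femur and 1 mandible library, replicate 1 being batch A and replicate 2 batch B. Each library was made from 20000 cells that passed through a monocyte isolation column with other cells bound by antibodies, and the samples carry the label CD11b+, a myeloid surface marker. The study's methods name mice of both sexes in the isolation step, whereas the sample labels give males. No genotype or treatment separated the groups, no animal gave a library of its own, and the cell type label was not checked against marker genes.

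The peaks held 44065130 and 75294068 counts in the first and second femur library, against 31976492 and 27464565 counts in the mandible libraries in the same order, which is kept below wherever values are given in pairs. The lowest summed count of any chain in any library was 369, and the median chain had 2198.5 to 5938 counts. Femur replicate 2 stood apart from the other libraries across the chains. The SD of its log2 deviation from the mean of the other 3 libraries was 0.237 over chains, while femur replicate 1 had 0.139 and the mandible libraries had 0.131 and 0.160. It was also the deepest library, and the part of depth in this was not tested.

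Most chains were short. There were 557 chains of exactly 5 peaks, 45.0% of all chains, with 281 of 6 peaks, 178 of 7, 104 of 8, 43 of 9 and 75 of 10 or more. The most peaks in a chain was 18. The median span was 12089.5 bp, with a range of 2691 to 46290 bp, and the spans summed to 16.3 Mb. Neighbouring peaks in a chain were separated by a median gap of 1415 bp, and peaks covered a median of 28.1% of the span.

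**Figure D1:**
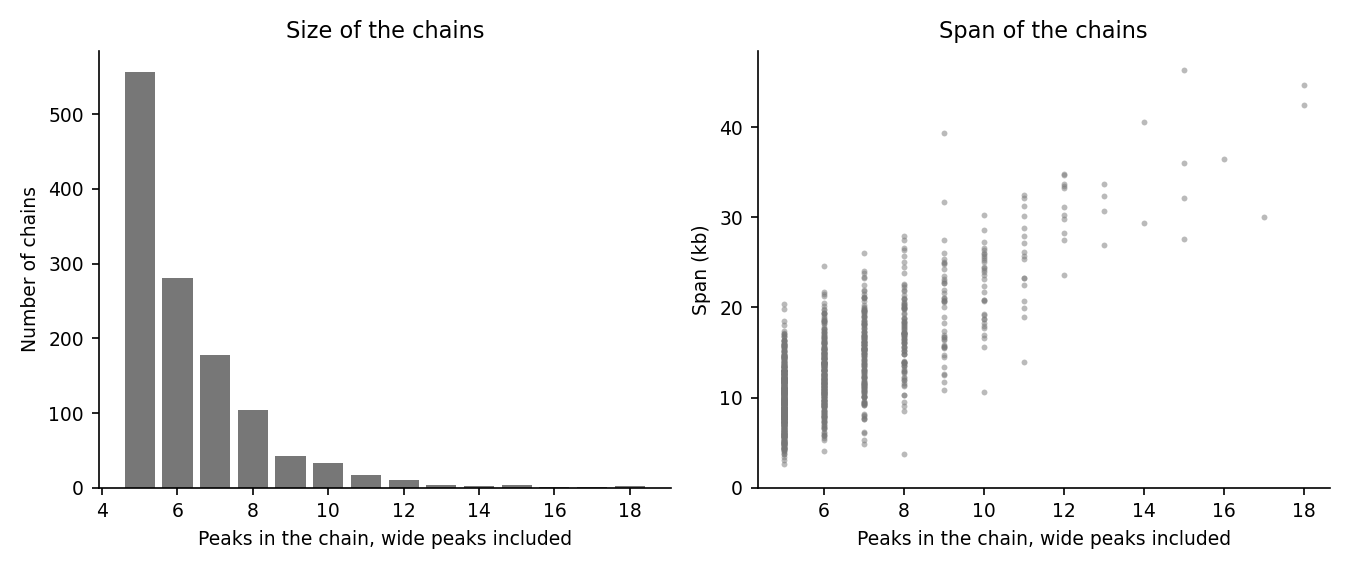
Left, number of chains (y axis) by the number of peaks they hold (x axis), wide peaks included; right, span in kb (y axis) against the number of peaks (x axis), each point 1 of 1238 chains. Chains of 5 peaks are the most frequent, with 557, and spans reach 46290 bp.

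The median level of the member peaks was 19.7 CPM per kb of peak, where CPM is the count scaled to the library total after correction with a loess curve for each library, against 19.3 for the 47231 other autosomal peaks of at most 2000 bp. Their median length was 402 bp, against 348 bp. At like length, members of over 1000 bp had a median of 32.9 CPM per kb against 38.6 for other peaks, and those of up to 250 bp had 16.5 against 16.5. These differences were not tested. In the median chain the strongest member held 42.0% of the summed CPM of the members, and in 386 chains it held at least 50%. This share ran from 13.2% to 90.0%, and at the upper end a chain was 1 strong peak with weak neighbours.

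In the 5 chains with the most members, strong and weak peaks stood side by side. The chain with the most, chr17:84391443-84436135, had 17 members over 44693 bp, and its strongest member held 13.2% of the summed CPM. The mean CPM of its members ran from 2.12 to 27.9. Its summed level was 213 and 207 CPM in femur against 197 and 225 CPM in mandible. Both femur values lay between the mandible values. The chains chr11:98824008-98866451 and chr5:123263730-123293797 had 16 members each, chr18:62288982-62325426 had 15 and chr9:61270512-61302641 had 14. Their strongest members held 28.1%, 20.8%, 37.7% and 36.2%, and the mean CPM of their members ran from 2.19 to 54.8, 2.81 to 45.8, 2.94 to 67.8 and 2.45 to 68.6. The log2 fold changes of these 5 chains, mandible against femur, were between 0.0023 and 0.16, with unadjusted p between 0.160 and 0.981, and in each the femur and mandible libraries overlapped. All 5 turned sign under another scaling, and no direction is read from them.

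The 5 chains with the highest level per kb had 4 to 6 members each. The highest was chr4:16159451-16169264, with 5 members and 90.2 and 74.1 CPM per kb in femur against 81.3 and 77.6 CPM per kb in mandible. Its femur libraries were the highest and the lowest of the 4. The next, chr7:24966572-24983399, had the highest summed level of all chains. It had 472 and 473 CPM in femur against 492 and 476 CPM in mandible, and the mandible values lay above the femur values by a log2 fold change of 0.033 with an SE of 0.066 and an unadjusted p of 0.622. With TMM, library size alone and DESeq2 its log2 fold change was 0.27, 0.18 and 0.29. In chr5:135036838-135044626, chr17:36140546-36152857 and chr13:59965780-59971512 the groups overlapped, with log2 fold changes of 0.029, -0.10 and -0.032. The first of these had 0.26 with TMM, 0.17 with library size alone and 0.28 with DESeq2. A single peak held 84.1% to 90.0% of the summed CPM in 4 of these 5 chains and 50.8% in the chromosome 7 chain.

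**Figure D2:**
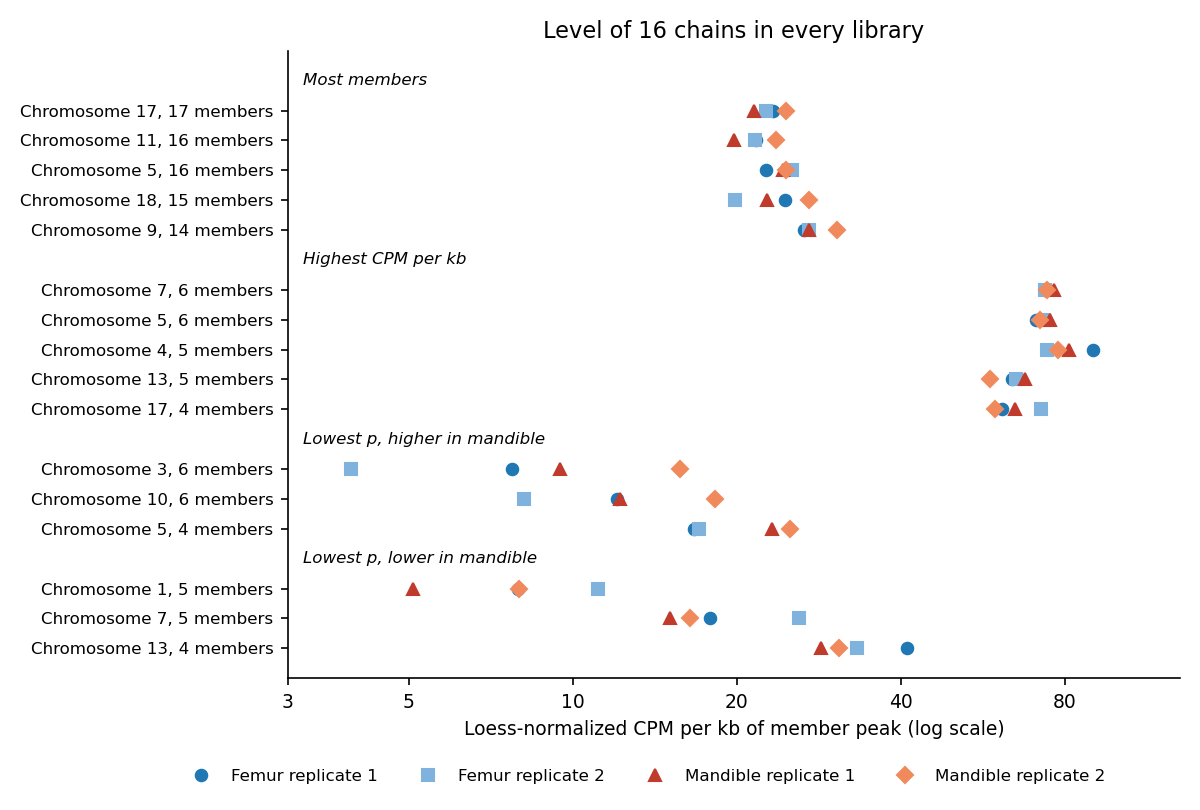
Level of 16 chains in every library, as loess-normalized CPM per kb of member peak on a log axis (x axis), with 1 row a chain, grouped by how the chain was chosen, and 1 symbol a library. In the rows with the most members and the highest CPM per kb the symbols of the sites are mixed or nearly coincide, and the chromosome 3 row runs from 3.91 CPM per kb in femur replicate 2 to 15.7 in mandible replicate 2.

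The share of all peak counts that fell in members was 11.07% and 11.08% in femur against 10.77% and 11.44% in mandible. The mandible libraries lay on either side of the femur libraries. The femur mean was 11.1% ± 0.00685 (SD, n = 2) and that of the mandible 11.1% ± 0.471 (SD, n = 2), a difference of 0.0224 percentage points (two-sided exact permutation test, p = 1). With 2 libraries against 2 this test cannot go below 0.333. The 95% Wilson intervals of the 4 shares covered counting error only and did not overlap for the mandible libraries, at 10.76% to 10.78% and 11.42% to 11.45%.

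The comparison of the sites asked whether whole chains were more or less accessible in the mandible than in the femur. In such bulk libraries a different mix of cells and a different accessibility per cell cannot be told apart. Counts were summed over the members of each chain and tested with edgeR's quasi-likelihood test together with the peaks outside chains, in a table of 50790 rows. No chain passed a Benjamini-Hochberg adjusted p of 0.05 in either direction, as 0% of all rows did. DESeq2 called 0 chains as well, beside 0.0276% of all rows called higher and 0% lower. The fit with batch as a block, which the mouse pools shared by the sites allow, called 2 chains higher, 0.162% of the chains beside 0.0965% of all rows, and 0 lower. They are the chromosome 3 and chromosome 10 chains described below. The block leaves almost no freedom to estimate the spread of a single row, so its p-values rest on spread shared across rows. Such p-values do not measure how far the batches differ in a chain or a peak. At an unadjusted p under 0.05 there were 31 chains higher in mandible, 2.50% of the chains beside 1.41% of all rows, and 6 lower, 0.485% beside 1.16%. Of these 37 chains, 29 went the same way in both batches, which the choice by p in part fixed. Most rows of the table are single peaks, whereas a chain is a sum of several. The median level was 76.9 CPM for chains against 6.83 CPM for all rows. The SD of the log2 fold change was 0.127 for chains against 0.253 for all rows. Shares of chains beside all rows thus compare rows of unlike level and spread. The part of level in them was not tested.

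The chains lay slightly towards the mandible as a group. Their median log2 fold change was 0.044, with a range of -0.55 to 1.12, against -0.010 over all rows, and 823 chains, 66.5%, were above 0 beside 47.8% of all rows. Both mandible libraries were above both femur libraries in 205 chains, 16.6% beside 12.5% of all rows, and below both in 65, 5.25% beside 14.2%. The size was small, and 1086 chains, 87.7%, were within 0.2 of 0. The direction depended on the scaling, and the size depended on 1 library. With TMM the median of the chains lay 0.10 above that of all rows. At an unadjusted p under 0.05, 42 chains were higher, 3.39% beside 2.35% of all rows, and 5 lower, 0.404% beside 2.17%. With DESeq2 the median also lay 0.10 above that of all rows. There 25 chains were higher, 2.02% beside 1.64% of all rows, and 2 lower, 0.162% beside 1.23%. A loess curve was also fitted to the table of chain sums in place of the table of peaks. The median of the chains then lay 0.081 below that of all rows in place of 0.054 above it. At an unadjusted p under 0.05, 4 chains became higher, 0.323% beside 1.56% of all rows, and 59 lower, 4.77% beside 1.16%. The curve of the peak table was chosen as the main one after both results had been seen. With library size alone, which put the median of all rows at -0.12, 14 chains were higher at this p, 1.13% beside 1.01% of all rows. There were 29 lower, 2.34% beside 4.78% of all rows. The median of the chains was -0.019, which is 0.10 above that of all rows. Without mandible replicate 2 the median of the chains lay 0.0069 above that of all rows.

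**Figure D3:**
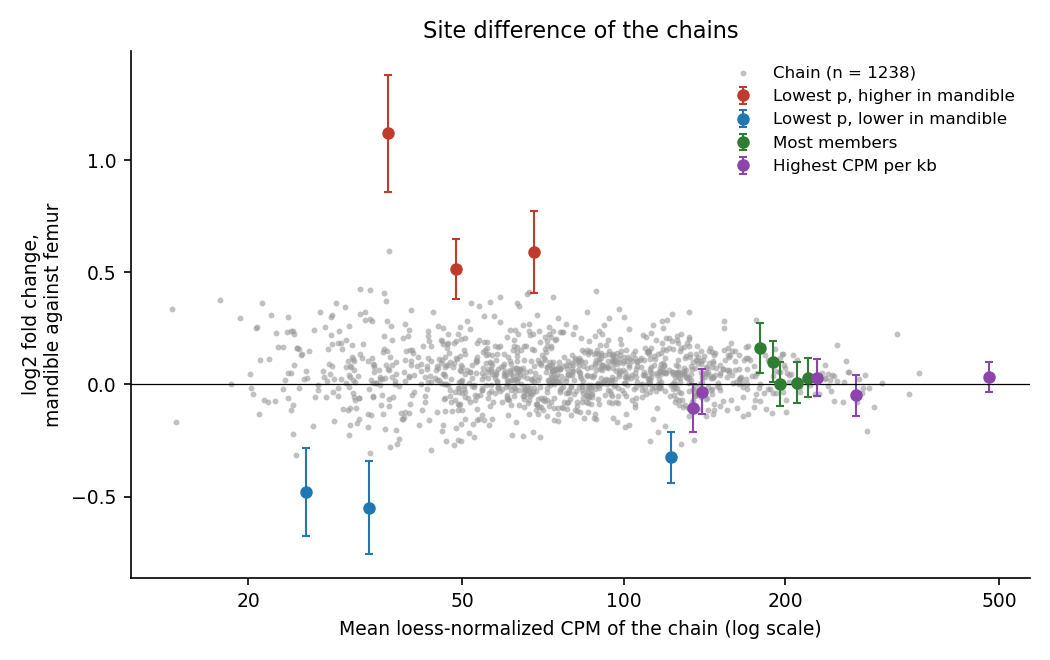
log2 fold change of mandible against femur (y axis) against the mean loess-normalized CPM of the chain on a log axis (x axis), with 1 point for each of 1238 chains, and the 16 named chains in colour with bars of 1 SE. Most points lie within 0.2 of 0, and the chromosome 3 chain stands highest at 1.12.

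The batches did not agree on the direction. The median log2 difference between mandible and femur over the chains was -0.011 for batch A but 0.090 for batch B. In 515 chains the difference was below 0 in batch A and above 0 in batch B, and in 279 it was the reverse. The same direction in both batches was seen in 305 chains that were higher and 139 that were lower, together 444 or 35.9% of the chains, beside 42% of all rows. With the loess curve of the chain table this order turned, at 48.1% beside 42.1%. In the 75 chains of 10 or more peaks this share was 24%, with medians of -0.034 for batch A and 0.142 for batch B. Mandible replicate 2 was the highest of the 4 libraries in 555 chains and femur replicate 2 the lowest in 502, and both belong to batch B. These counts were not made over all rows. Femur replicate 2 also stood apart over the other autosomal peaks of at most 2000 bp. The SD of its log2 deviation was 0.419 there, while femur replicate 1 had 0.234 and the mandible libraries had 0.259 and 0.315.

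**Figure D4:**
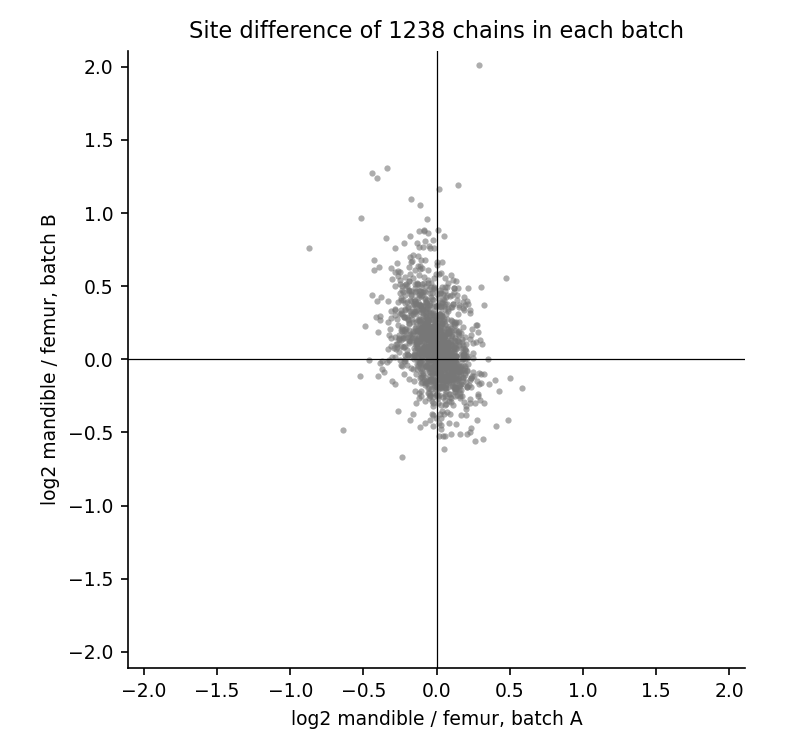
log2 ratio of mandible to femur in batch B (y axis) against the same ratio in batch A (x axis), with 1 point for each of 1238 chains and lines at 0. The points spread more along the batch B axis, the upper left field holds the most chains, 515, and 1 chain reaches 2.01 in batch B.

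The chromosomes differed in how much of their peak set lay in chains, from 9.95% of peaks on chromosome 16 to 16.7% on chromosome 10. Across the 19 autosomes this share had a Pearson correlation of 0.38 (Spearman 0.48) with the GC content of the chromosome, taken from the whole sequence in the earlier build GRCm38. The median difference of the chains of a chromosome had a correlation with GC content of 0.78 (Spearman 0.72) for batch A and of -0.88 (Spearman -0.82) in batch B, so that the sign was opposite in the batches. Without the 2 chromosomes of most extreme GC content the values were 0.72 and -0.83. All points share the same 4 libraries, and these values are descriptions.

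Among single member peaks, tested in the table of all 57090 peaks, none passed an adjusted p of 0.05 in edgeR's quasi-likelihood test, while 0.00525% of all peaks were called higher and 0.00175% lower. DESeq2 called 1 member higher, Peak_17591, 0.0133% beside 0.021% of all peaks, and gave no adjusted p for 2971 members. At an unadjusted p under 0.05 there were 215 members higher, 2.85% beside 1.61% of all peaks, and 48 lower, 0.637% beside 1.1%. With library size alone there were 131 higher, 1.74% beside 1.17% of all peaks, and 203 lower, 2.69% beside 4.53%. Without mandible replicate 2 the median log2 fold change of the members lay 0.0033 above that of all peaks. The batch block called 5 members higher at an adjusted p under 0.05, 0.0663% beside 0.0823% of all peaks. Of the members, 4541, or 60.2%, had a log2 fold change above 0, beside 49.1% of all peaks. With library size alone this was 40.6% beside 32.1%, and without mandible replicate 2 it was 49.9% beside 49.2%. Both mandible libraries were above both femur libraries in 1440 members, 19.1% beside 13.3% of all peaks, and below both in 731, 9.70% beside 13.8%, and 43.5% went the same way in both batches, beside 42.3%. The median log2 fold change was 0.054 for members and -0.015 for the other autosomal peaks of at most 2000 bp. In batch A the medians were -0.016 and 0.00066, and in batch B 0.12 and -0.037. Short members stood farther from 0 than long ones, by more in batch B than in batch A. The medians of members of up to 250 bp were 0.019 for batch A and 0.19 for batch B. Those of members of over 1000 bp were -0.0066 and 0.067. In between, members of over 250 to 500 bp had a median log2 fold change of 0.061, and those of over 500 to 1000 bp had 0.030. The median log2 fold change was 0.11 for the 1944 members of up to 250 bp and 0.034 for the 958 members of over 1000 bp, whereas other peaks of these lengths had -0.012 and -0.0093.

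The values just inside and just outside the limits of the rule lay near each other. Peaks of at most 2000 bp in chains of 4, just outside the rule, had a median log2 fold change of 0.037 (4660 peaks), and members in chains of 5, just inside it, had 0.046 (2711 peaks). By length, chain peaks of over 2000 and up to 2500 bp had 0.027 (121 peaks), and those of over 1500 and up to 2000 bp had 0.038 (287 peaks).

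Members of a chain did not all move one way. In 131 chains every member had a log2 fold change above 0, in 40 every member was below 0, and in 1067 the members went in both directions. The median spread between the lowest and the highest log2 fold change in a chain was 0.56. Neighbouring members had the same sign in 60.6% of 6300 pairs. This share fell with the gap, from 67.6% at up to 1 kb to 57.7% at 1 to 2.5 kb and 54.3% at 2.5 to 5 kb. Neighbouring peaks that were not both members of a chain showed 64.2%, 55.7% and 55.2% at these gaps and 52.7% over 50 kb. Members and other neighbours thus had shares within 4 percentage points of each other at each of the 3 gaps, and this difference was not tested.

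The chain with the lowest p towards the mandible was chr3:65845781-65866554, with 6 members and 1 wide peak over 20774 bp. Its summed counts were 1375 and 1280 in femur against 1120 and 1647 in mandible. After normalization its level was 30.5 and 15.4 CPM in femur against 37.4 and 62.1 CPM in mandible. Both mandible libraries were above both femur libraries, and the femur libraries differed between themselves by more than femur replicate 1 differed from mandible replicate 1. The log2 fold change was 1.12 with an SE of 0.26 and an edgeR adjusted p of 0.923. Batch A gave 0.29 and batch B gave 2.01. With batch as a block the edgeR adjusted p was 6.45e-06, which does not measure the gap between 0.29 and 2.01 in the batches. DESeq2 gave a log2 fold change of 1.08 with an SE of 0.60 and an adjusted p of 0.998.

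All 6 members of the chromosome 3 chain had a log2 fold change above 0, but of unequal size. In batch B all 6 were above 0. For batch A, Peak_34222, Peak_34223 and Peak_34226 had log2 differences of -0.29, -0.038 and -0.18, and the other members were above 0. The lead came from Peak_34224, a peak of 1992 bp, just inside the limit of length, at chr3:65851499-65853490. It had 7.17 and 3.55 CPM in femur against 14.3 and 31.0 CPM in mandible, a log2 fold change of 2.09 with an SE of 0.34 and an edgeR adjusted p of 0.0756. Both mandible libraries were above both femur libraries, in batch A as in batch B. Its adjusted p was 0.0269 with TMM normalization, 0.000240 with library size alone and 3.48e-09 with the batch block, but 0.999 with DESeq2 and 0.263 without mandible replicate 2. The members at the start of the chain, Peak_34222 and Peak_34223, had log2 fold changes of 0.32 and 0.17 with unadjusted p of 0.331 and 0.595. The wide peak at its end, Peak_34228 of 3256 bp, had 189 and 172 CPM in femur and 173 and 184 CPM in mandible, a log2 fold change of -0.013. With that peak in the sum, the log2 fold change of the chain was 0.17.

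The chain chr5:109696499-109707354 was, of the 6 chains chosen by p, the one whose batches were closest. Its 4 members had a summed level of 39.7 and 40.6 CPM in femur against 55.3 and 59.6 CPM in mandible. The groups did not overlap, and the libraries of each site lay close together. The log2 fold change was 0.52 with an SE of 0.13, an unadjusted p of 0.00131 and an edgeR adjusted p of 1, with 0.48 for batch A and 0.55 for batch B. The 4 members had log2 fold changes of 0.41 to 0.61. Of its 2 wide peaks, Peak_41465 had 28.8 and 27.5 CPM in femur and 35.4 and 40.2 CPM in mandible, with a log2 fold change of 0.43. The other, Peak_41469 at the end of the chain, was the strongest, with 386 and 327 CPM in femur and 360 and 355 CPM in mandible and a log2 fold change of 0.0039. With both in the sum the log2 fold change was 0.092.

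In chr10:117664914-117682619 all 6 members had log2 fold changes above 0, from 0.28 to 1.40. In batch B all 6 were above 0. For batch A, Peak_6724 and Peak_6726 had log2 differences of -0.035 and -0.15, and the other members were above 0. The summed level was 65.0 and 43.8 CPM in femur against 65.8 and 98.0 CPM in mandible. The groups did not overlap, but the libraries of batch A were nearly equal, with a log2 difference of 0.018 against 1.16 in batch B. The log2 fold change was 0.59 with an SE of 0.18 and an edgeR adjusted p of 1, or 0.0339 with the batch block and 0.998 with DESeq2. Its wide peak, Peak_6727, had 177 and 169 CPM in femur and 159 and 182 CPM in mandible, and with it in the sum the log2 fold change was 0.15.

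**Figure D5:**
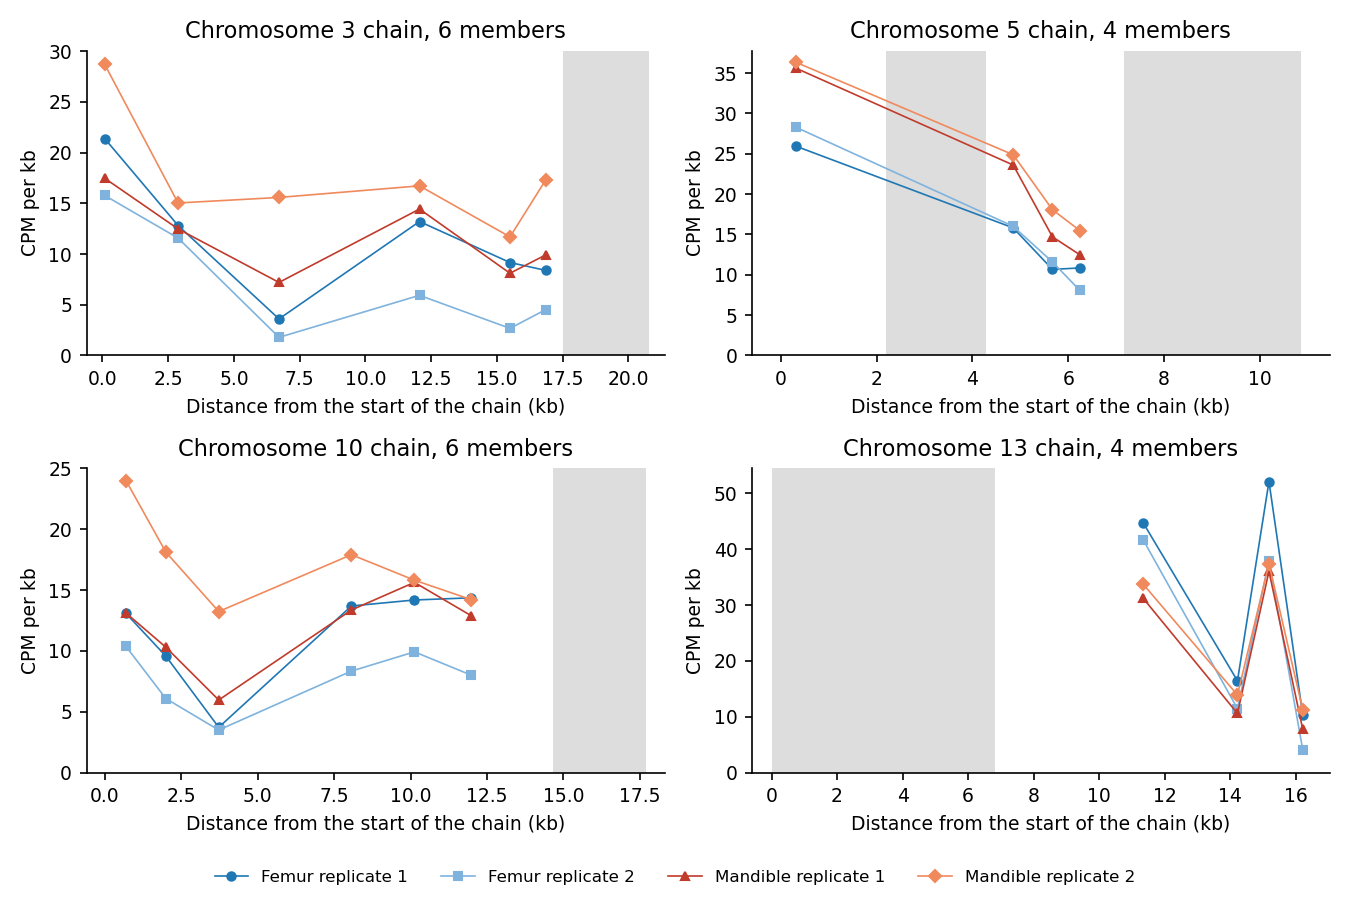
Loess-normalized CPM per kb of each member peak (y axis) against the distance of its middle from the start of the chain in kb (x axis), in the 4 libraries, for the 3 chains with the lowest p towards the mandible and the 1 with the lowest p towards the femur. Grey bands are the wide peaks that the rule leaves out; in the chromosome 5 chain both mandible lines run above both femur lines at all 4 members.

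Towards the femur, the lowest p was that of chr13:23754307-23770750, with 4 members and 1 wide peak. The members summed to 150 and 122 CPM in femur against 104 and 113 CPM in mandible, with no overlap. The log2 fold change was -0.33 with an SE of 0.11, an unadjusted p of 0.0107 and an edgeR adjusted p of 1. It was -0.20 with TMM (edgeR unadjusted p = 0.168) and -0.19 with DESeq2 (unadjusted p = 0.268). With library size alone it was -0.30, and with the loess curve on the chain rows -0.40. For the summed members batch A gave -0.52 and batch B gave -0.11. Peak_13936, Peak_13937 and Peak_13938 had log2 fold changes of -0.41, -0.18 and -0.29, while the remaining member, Peak_13939, had 0.41. Here the wide peak, Peak_13935 of 6835 bp, went the same way as the summed members. It had 313 and 242 CPM in femur and 192 and 197 CPM in mandible. Its log2 fold change was -0.52, with an edgeR adjusted p of 0.174.

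In chr1:88175357-88192157 all 5 members had log2 fold changes below 0, from -0.93 to -0.24. In batch A all 5 were below 0. For batch B, Peak_1326 had a log2 difference of 0.10, and the other members were below 0. The summed level was 33.2 and 46.6 CPM in femur and 21.3 and 33.3 CPM in mandible, so that femur replicate 1 and mandible replicate 2 were nearly equal and the groups overlapped. The log2 fold change was -0.55 with an SE of 0.21 and an unadjusted p of 0.0167, and its 2 wide peaks had -0.57 and -0.45. The chain chr7:98896902-98902879, with 5 members and no wide peak, had 24.3 and 35.4 CPM in femur and 20.6 and 22.3 CPM in mandible. Its groups did not overlap, and its log2 fold change was -0.48 with an SE of 0.20 and an unadjusted p of 0.0253. Neither chain passed the adjusted threshold.

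In chains with a wide peak, the members more often lay farther towards the mandible than the wide peaks did. The wide peaks held a median of 61.7% of the counts of the 213 chains that had one. The median log2 difference between mandible and femur was 0.077 for the summed members of these chains and 0.026 for the summed wide peaks. The members were farther towards the mandible than the wide peaks of the same chain in 132 chains, or 62.0%. Batch A gave 69.0% and batch B gave 57.3%. The members of these chains had medians of 0.00092 in batch A and 0.13 in batch B, and the wide peaks had -0.035 and 0.097. The 1025 chains without a wide peak had a median log2 fold change of 0.036. These are descriptions, without a test.

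The 10 members with the lowest unadjusted p were led by Peak_34224, and 9 of them had a higher level in the mandible. The list was chosen by p, and no such list was drawn from all peaks. At an edgeR unadjusted p under 0.05, 919 of all peaks were higher and 629 lower. In Peak_10828, at chr11:115907193-115907782, the level was 2.40 and 1.70 CPM in femur against 5.41 and 7.03 CPM in mandible, with a log2 fold change of 1.61 and an edgeR adjusted p of 0.152, or 0.00479 with the batch block. Its chain as a whole had a log2 fold change of -0.21. In Peak_17591, at chr14:70314136-70314888, the level was 10.2 and 10.3 CPM in femur and 20.4 and 18.4 CPM in mandible, with a log2 fold change of 0.92, and the DESeq2 adjusted p was 0.0132. The libraries of each site were close and the groups did not overlap in this peak. Peak_432, at chr1:40133345-40135014, had 7.72 and 6.11 CPM in femur and 19.0 and 11.5 CPM in mandible, and its adjusted p was 0.0388 with the batch block. The batch block also called Peak_34137, with 31.6 and 12.2 CPM in femur and 35.8 and 36.3 CPM in mandible, and Peak_54661, with 2.44 and 0.12 CPM and 2.86 and 4.62 CPM, where femur replicate 2 was the lowest library and batch A differed little. The member that stood farthest towards the femur in this list was Peak_13870, at chr13:21970156-21970696, with 8.74 and 5.15 CPM in femur and 3.60 and 2.11 CPM in mandible, a log2 fold change of -1.27 and an edgeR adjusted p of 1.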

How the data were processed

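According to the study's methods, reads were trimmed (Trimmomatic), aligned to GRCm39 (Bowtie2) and filtered by mapping quality, and the authors merged Genrich peaks called in each pair of duplicates. For each merged peak, the authors deposited counts made with featureCounts 2.0.6, which counted each read of a pair and were not normalized. Reads that overlapped 2 peaks were not counted, which can lower counts where peaks stand close together.

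Counts were normalized with loess offsets (span 0.3, 4 iterations) and tested with edgeR 4.0.16 in R 4.3.3, as in the study's methods, with site alone in the model, a formula that the methods do not give. The edgeR filter on low counts removed no row, and p-values were adjusted over all rows. Each chain took the sum of its members, with offsets from the curve of the peak table. A curve fitted to the chain table was tried first and replaced after both results were seen, since it put the sums on the curve of strong single peaks. The replicate numbers mark batches of shared pooled mice, so batch was fitted as a block in an alternative. The correlation of same-numbered deviations was -0.167 over all peaks and -0.203 over members. Other alternatives were TMM, library size, DESeq2 1.42.0, other filters, gaps and chain lengths, and each library left out. The chain fit was checked on simulated peaks drawn independently, with a common dispersion and no batch difference. The other tests were not checked this way.

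The members and lists were chosen with earlier results of these data known. Named chains were the 5 with most members, the 5 with the highest CPM per kb and, since no chain passed, the 3 with the lowest p in each direction that went the same way in both batches. Single member peaks outside these chains were named after their values were seen. Gene names, gene lists and sequences were not used, since the reference at hand is of another build, GRCm38.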

Additional observations from a re-analysis of the deposited data

How the results depend on the processing

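The counts of 0 chains called in either direction held with TMM, library size alone, DESeq2, both other filters on low counts, a threshold of 0.1, gaps of 2500 and 10000 bp, chains of 10 or more peaks, wide peaks left out before chaining or kept in the sums, and the loess curve on the chain rows. With the replicate block 2 chains were called higher, 0.162% beside 0.0965% of all rows. So were 5 member peaks, 0.0663% beside 0.0823% of all peaks. The block called no chain or member lower. With TMM, library size alone and DESeq2, 1 member peak each was called higher, 0.0133% beside 0.0105%, 0.028% and 0.021% of all peaks. A threshold of 0.1 also gave 1. Leaving out 1 library in turn, with the lone library of a site assumed to vary like the others, gave 0 to 101 chains higher, 0 to 9 lower, 0 to 392 member peaks higher and 0 to 35 lower. The highest counts came without femur replicate 1, when femur replicate 2 alone stood for its site. In that fit 8.16% of the chains were higher beside 3.82% of all rows and 0.727% lower beside 1.13%, and 5.20% of the member peaks were higher beside 3.75% of all peaks and 0.464% lower beside 0.958%.

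The difference in the share of counts was -0.289 percentage points with a gap of 10000 bp, and leaving out 1 library gave -0.311 to 0.356, the lowest without mandible replicate 2. The share of chains with the same direction in both batches was 43.8% beside 48.7% of all rows with TMM, 42.5% beside 50.7% with library size alone and 48.1% beside 42.1% with the loess curve on the chain rows, where the order turned. The median of the chains relative to all rows was -0.081 with that curve, and 0.0069 to 0.11 with 1 library left out. For member peaks relative to all peaks it was 0.0033 to 0.11, the lowest in both without mandible replicate 2.

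The 3 named chains with the lowest p in each direction kept their sign in every alternative run, which the choice by p and by batch direction in part fixed. Leaving out 1 library gave log2 fold changes of 0.69 to 1.68 in the chromosome 3 chain, 0.47 to 0.58 in chr5:109696499-109707354 and 0.29 to 0.90 in the chromosome 10 chain. In the chromosome 3 chain the value was 0.71 without femur replicate 2 and 0.69 without mandible replicate 2. It was -0.47 to -0.15 in chr13:23754307-23770750, -0.91 to -0.27 in chr1:88175357-88192157 and -0.73 to -0.16 in chr7:98896902-98902879.

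The other named chains lay near 0, and each of the 10 turned sign at some setting. With TMM, DESeq2 and without femur replicate 2, chr17:36140546-36152857 had 0.084, 0.098 and 0.027. The chain chr4:16159451-16169264 had 0.19 with TMM, 0.097 with library size alone, 0.21 with DESeq2 and 0.11 without femur replicate 1. The chain chr13:59965780-59971512 had 0.16, 0.064 and 0.18 in the first 3 of these and 0.064 without mandible replicate 2. With the loess curve on the chain rows, the values were -0.053 in chr7:24966572-24983399, -0.029 in the chromosome 18 chain, -0.086 in the chromosome 9 chain, -0.19 in chr5:123263730-123293797, -0.23 in chr17:84391443-84436135 and -0.21 in the chromosome 11 chain. The last 3 had -0.033, -0.080 and -0.066 with library size alone. The chain chr5:135036838-135044626 had -0.0011 without mandible replicate 1, and chr5:123263730-123293797 had -0.048 without femur replicate 1. The chain chr17:84391443-84436135 had -0.012 without femur replicate 2 and -0.096 without mandible replicate 2. The chromosome 11 chain had -0.0032 with the replicate block, -0.13 without mandible replicate 2 and -0.015 with wide peaks kept. The chromosome 18 chain ran from 0.018 to 0.33 with 1 library left out and was called without femur replicate 1 (edgeR adjusted p = 0.0462), and the chromosome 9 chain ran from 0.012 to 0.18. Over all 4 left-out libraries, the other bounds were -0.22 in chr17:36140546-36152857, -0.18 in chr4:16159451-16169264, 0.060 in chr5:135036838-135044626, -0.14 in chr13:59965780-59971512, 0.12 in chr5:123263730-123293797, 0.10 in chr17:84391443-84436135 and 0.12 in the chromosome 11 chain. The cause was not tested.

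With 2 libraries a site, pooled mice and a reference of another build, genes, cell types and single animals were not analysed here. A chain that misses the threshold is not shown to be equal between the sites.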

Other observations

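The rule takes autosomes only. The same chaining on the sex chromosomes gave 17 chains on X and 1 on Y. The Y chain, chrY:90810129-90824285 in GRCm39, had 8 members with 48.8 and 57.4 CPM in femur against 52.1 and 107 CPM in mandible. Mandible replicate 2 was the highest of the libraries there, and the other 3 were within 8.54 CPM of each other. On X, the chain with the highest level, chrX:73287026-73299106, had 268 and 242 CPM in femur against 272 and 277 CPM in mandible. In chrX:9326630-9341050 the level was 75.0 and 48.9 CPM in femur and 53.7 and 72.9 CPM in mandible, with the femur libraries as the highest and the lowest.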
